A study of Mus musculus with 8 samples.

Results

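In spleens of Yaa and wild-type mice, the probe sets of 6 genes did not move together: Kif5b, Zfp24, Taf15, Map3k12, Ptp4a2 and Pdxdc1. Their members were all probe sets that the platform annotation gives to exactly 1 of these genes, 26 of the 45101 probe sets on the array. The 6 genes were picked because their probe sets disagreed in this same comparison, so each difference between the groups is given as a description without a test. Kif5b and Zfp24 had 6 probe sets each, Pdxdc1, Map3k12 and Ptp4a2 had 4 each, and Taf15 had 2. Of the 26, 25 passed the filter on low signal, and 1 of Map3k12 did not.

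Total RNA of spleen cells from 8-week-old male mice was measured on Affymetrix mouse arrays, 1 array per sample. The wild-type group held 4 C57BL/6J males, called wild type 1 to 4. The Yaa group held 4 samples of B6.SB-Yaa/J, a strain that carries the Yaa mutation on the Y chromosome in a C57BL/6 background, called Yaa 1 to 4. Each sample came from 1 spleen except Yaa 3, which pooled 2, and red cells were lysed before extraction in both groups. Yaa is a piece of the distal X chromosome moved to the Y, with Tlr7 on it, and none of the 6 genes is X-linked. The strains may also differ elsewhere in the genome, so a difference between the groups need not come from the Y chromosome. In RNA of whole suspensions, fewer cells of a type and less RNA per cell cannot be told apart.

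A probe set is a group of short oligonucleotides that reads 1 stretch of a transcript, usually near its 3′ end. Several probe sets of a gene can therefore read different polyadenylation forms, splice forms or retained introns, and a base that differs between strains can weaken binding to 1 of them. A change in the amount of a gene's RNA moves all probe sets that read the same transcripts, whereas such local features move them apart. The suffix of a probe set name states its design: _at reads 1 transcript, _a_at reads alternative transcripts of 1 gene, and _s_at can read transcripts of several genes. Probe letters and their place along the transcript were not analysed here.

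Values are quantile-normalized MAS5 signals in arbitrary units, and differences are of log2(signal + 16), Yaa minus wild type, with the standard error (SE) of the fit across all tested probe sets. Fold changes are on the same scale, and where the signal is near 16 they come out smaller than the ratio of signals. Levels are compared between arrays for 1 probe set and not between probe sets. The trimmed mean signal of the deposited arrays ran from 106.9 to 193.1. Yaa 2 and Yaa 3 stood at opposite ends of the first principal component, at 68.8 and -92.4. They also stood out in the signals of cell markers. The summed signal of 7 tested B cell markers was 304 in Yaa 3 and 11460 to 20080 in the other Yaa arrays, against 11809 to 16656 in wild type. Summed erythroid markers were 11581 in Yaa 2 and 32899 to 41883 in the other 7 arrays. Markers of B cells, T cells and erythroid cells, which a spleen holds, all gave signal in wild type, with T cell sums of 5346 to 9523. In Yaa the T cell sum was 484 in Yaa 3 and 6517 to 12166 in the other arrays. All 5 heat shock markers had higher means in Yaa, with summed signals of 11583 to 13939 in wild type and 15515 to 29719 in Yaa, and the lowest single value was 390. Their part in the differences of the members was not tested.

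Across the array, limma called 1 of 22518 tested probe sets higher at a Benjamini-Hochberg adjusted p under 0.05 (0.00444%) and 0 lower (0%), with 669 higher and 397 lower at an unadjusted p under 0.05. The 1 call belonged to Casp9. Without Yaa 2 limma called 30, without Yaa 4 it called 10, and without Yaa 1 or without Yaa 3 it called 0. The 4 values of each group did not overlap for 4.1% of tested probe sets, 2.43% with all Yaa arrays higher and 1.67% with all Yaa arrays lower. With 1 array left out, 715 to 1099 probe sets were wholly higher and 476 to 1151 wholly lower, most of both without Yaa 2. Among the 26 member probe sets 5 were wholly higher and 5 wholly lower in Yaa, a count that the choice of genes fixed, and 16 overlapped. Without Yaa 2 there were 6 and 9, and Pdxdc1 and Ptp4a2 then joined Zfp24 and Taf15 in having 1 probe set wholly higher and another wholly lower. With the signals as deposited, the split over all tested probe sets was 96 wholly higher and 589 wholly lower in place of 548 and 376, where the median over them was -0.20 in place of -0.01. The 10 members that did not overlap kept their direction under 14 alternative settings, whereas 9 of the 16 others turned sign in at least 1. Where groups do not overlap, another added constant, a block for the replicate number or fewer arrays can hardly turn a direction. Mainly the other scalings could do so, so the kept direction is no measure of stability.

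**Figure D1:**
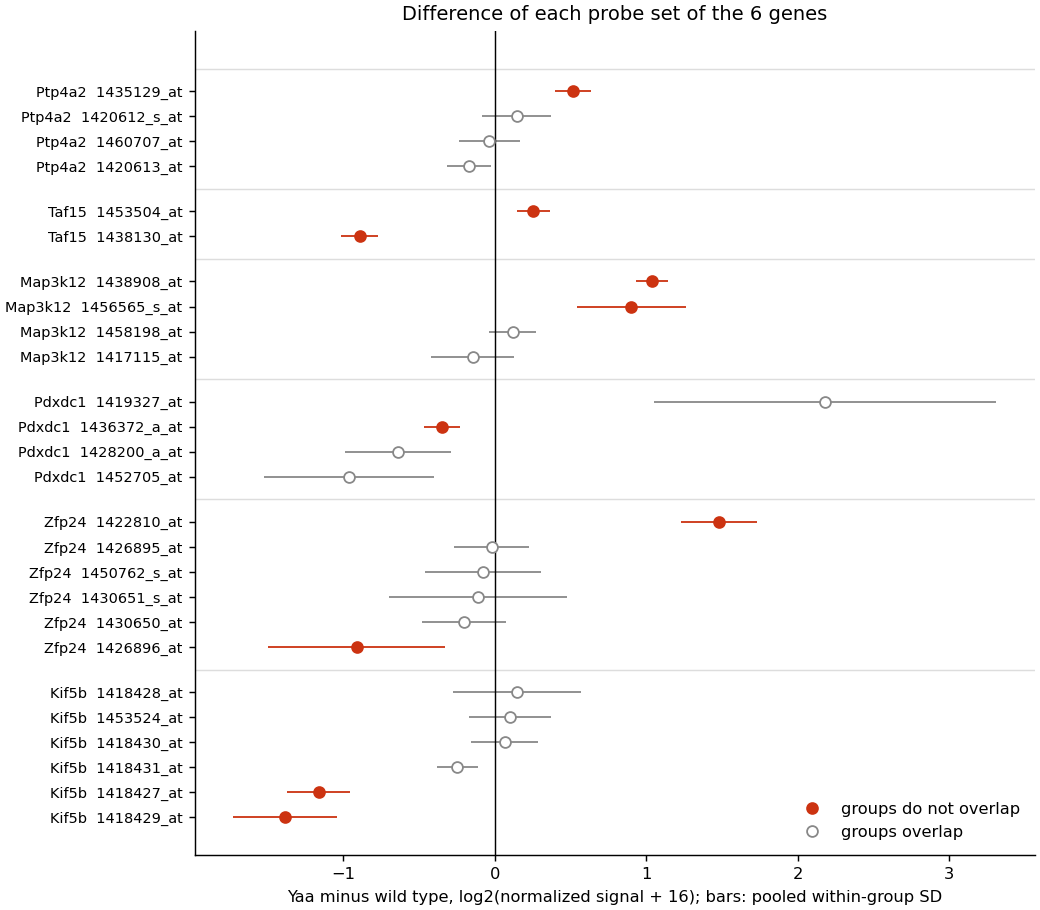
Difference between Yaa and wild type of each of the 26 probe sets, on the log2(normalized signal + 16) scale, grouped by gene. Points are differences of the means of 4 arrays each, bars are the pooled within-group SD, and filled points mark the 10 probe sets whose groups were apart. In Kif5b, Zfp24, Map3k12 and Ptp4a2 open points near 0 stand beside filled points far from it, and in Taf15 the 2 filled points lie on opposite sides of 0.

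Kif5b encodes the heavy chain of kinesin-1 found in most tissues, a motor that carries organelles, vesicles and RNA along microtubules towards their plus ends. Of its 6 probe sets, 2 were much lower in every Yaa array and 4 overlapped between the groups. The probe set 1418427_at read 1027, 999.9, 1166 and 1133 in wild type 1 to 4 and 420.1, 394, 494 and 611 in Yaa 1 to 4. All Yaa arrays lay below all wild-type arrays, and the difference was -1.16 ± 0.15 (SE, n = 4 per group), 2.24-fold lower. The probe set 1418429_at read 591, 639, 709 and 733 in wild type and 179, 207, 245 and 393 in Yaa, a difference of -1.39 ± 0.22 (SE), 2.61-fold lower. Yaa 4 was the highest Yaa array in both.

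The other Kif5b probe sets overlapped between the groups. The probe set 1418430_at read 1039, 1010.4, 1202 and 1095 in wild type and 1237, 1379, 856 and 1132 in Yaa, so that the wild-type values lay inside the Yaa range. Its difference was 0.06 ± 0.16 (SE), which turned sign with the signals as deposited, with median-centred arrays and without Yaa 2. The differences were 0.15 ± 0.27 (SE) for 1418428_at, 0.10 ± 0.19 (SE) for 1453524_at and -0.25 ± 0.13 (SE) for 1418431_at. The first of these turned sign with the signals as deposited or without wild type 1, where that array read 71.4 against 148 to 176 in the other wild-type arrays. The second turned sign with the signals as deposited, with median-centred arrays and without Yaa 4. The third, 1418431_at, turned sign in none of the 14 alternatives. It read 265.3 to 285.9 in wild type and 190.3 to 265.5 in Yaa, and overlapped only through Yaa 2, which lay just above wild type 4.

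The 2 low Kif5b probe sets differed from each other by 0.22 in their Yaa minus wild-type change, and those groups overlapped, whereas each stood apart from all 4 others in every Yaa array. In 9 of the 15 pairs of Kif5b probe sets, the within-array difference did not overlap between the groups. The widest gap, 1418428_at less 1418429_at, was -2.20 ± 0.44 over the 4 wild-type arrays and -0.66 ± 0.70 over the 4 Yaa arrays (SD), a change of 1.53. Yaa 2 and Yaa 3, which stood out in their cell markers, were both low in both probe sets. Without those arrays the differences were -1.06 for 1418427_at and -1.27 for 1418429_at.

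**Figure D2:**
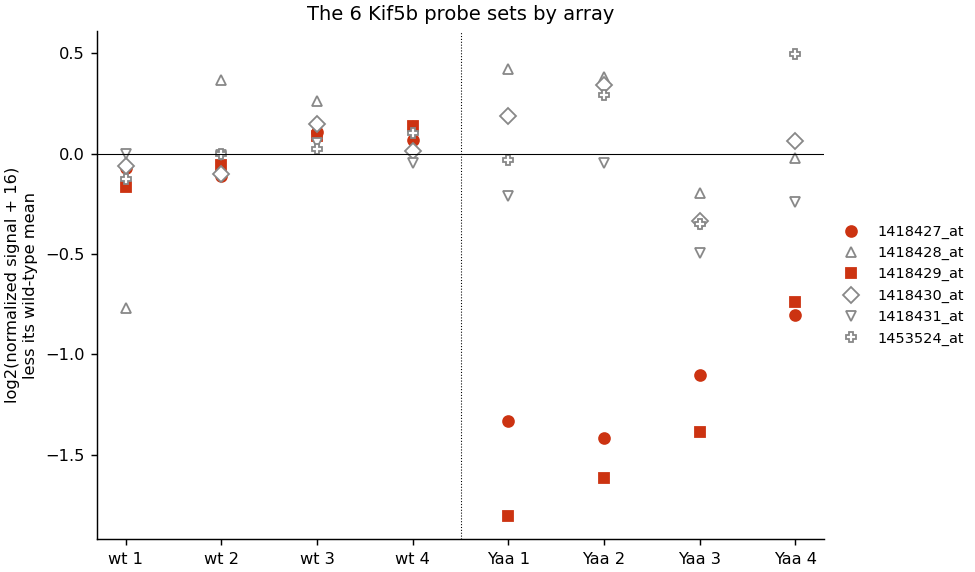
The 6 Kif5b probe sets in each array, as log2(normalized signal + 16) less the mean of the 4 wild-type arrays, so that 0 is the wild-type level. The filled red points, 1418427_at and 1418429_at, lie below the wild-type level in all 4 Yaa arrays, by 1.16 and 1.39 on average, while the grey open points of 3 others lie on both sides of 0 in Yaa and those of 1418431_at lie below it in all 4 Yaa arrays, by 0.25 on average, but overlap wild type.

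Zfp24 encodes a transcription factor with a SCAN domain and C2H2 zinc fingers. Its probe sets moved both ways. The probe set 1422810_at read 81.2, 87.8, 91.4 and 82.0 in wild type and 335, 319, 249 and 191 in Yaa, 2.79-fold higher (1.48 ± 0.18, SE), and the lowest Yaa array was above the highest wild-type array. The probe set 1426896_at read 117, 114, 120.1 and 155 in wild type and 17.2, 98.3, 83.4 and 68.5 in Yaa, 1.88-fold lower (-0.91 ± 0.35, SE). All Yaa arrays were below wild type in this probe set, but Yaa 1 far more than the others, and without Yaa 1 the difference was -0.52. The remaining 4 overlapped, with differences from -0.20 to -0.02, and each of these turned sign in 1 or more of the alternatives. The probe set 1426895_at, for example, read 214, 256, 295 and 254 in wild type and 195, 331, 228 and 260.4 in Yaa.

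The Zfp24 probe set that was higher stood apart from all 5 others: its within-array difference to each did not overlap between the groups, with changes from 1.5 to 2.39. The widest gap, 1422810_at less 1426896_at, was -0.48 ± 0.22 over the 4 wild-type arrays and 1.92 ± 1.0 over the 4 Yaa arrays (SD), and its change of 2.39 ranked 4 of 4966 genes with 2 or more tested probe sets. In 1 of the 4 Yaa arrays, Yaa 1, the gap was 3.40, and in the other 3 it was 1.29 to 1.55.

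Taf15 encodes an RNA-binding protein related to EWSR1, and was first known as a factor associated with TFIID, the complex that recognises core promoters. Both of its probe sets differed, in opposite directions. The probe set 1438130_at read 299, 271, 291 and 313 in wild type and 149.6, 177, 136 and 143 in Yaa, 1.86-fold lower (-0.89 ± 0.13, SE). The probe set 1453504_at read 25.4, 32.7, 31.1 and 32.0 in wild type and 35.8, 44.7, 36.2 and 40.2 in Yaa, 1.19-fold higher (0.26 ± 0.14, SE). The groups did not overlap in either, but the second lay close to the added 16 and its highest wild-type and lowest Yaa values were only 32.7 and 35.8. With the signals as deposited its groups overlapped.

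The Taf15 gap was the tightest relative to its spread after that of Ptp4a2: 1453504_at less 1438130_at was -2.74 ± 0.15 over the 4 wild-type arrays and -1.60 ± 0.090 over the 4 Yaa arrays (SD). The 4 Yaa arrays lay between -1.68 and -1.50 and the wild-type arrays between -2.93 and -2.56. Yaa 2 and Yaa 3 lay within the range of the other Yaa arrays, at -1.67 and -1.54.

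Map3k12 encodes the dual leucine zipper kinase, a MAP3K that acts at the top of the JNK cascade and is best known from the response of neurons to axon injury. Of the 4 members matched in the RefSeq promoter table of GRCm38.p6, it had 2 start sites, 6304 bases apart on the minus strand, and Pdxdc1, Taf15 and Ptp4a2 had 1 each. RefSeq lists 10 transcripts of Map3k12, 9 of Taf15, 7 of Pdxdc1, 6 of Ptp4a2, 3 of Zfp24 and 1 of Kif5b. Curated mRNA records among them are fewer for some genes, at 3, 1, 4, 2, 3 and 1 in the same order. Both windows of 250 bases before the start are printed because they show where its 2 annotated starts lie. Capitals mark GGGCGG on either strand, the letters of a GC box, which 32.7% of the 32851 windows of this length hold. TATAAA and CCAAT on either strand, held by 12.4% and 33.8% of windows, were not among the letters of these 2 windows. Which probe set reads which form is not given in the sources used here.
Map3k12 window 1, chr15:102517005-102517254: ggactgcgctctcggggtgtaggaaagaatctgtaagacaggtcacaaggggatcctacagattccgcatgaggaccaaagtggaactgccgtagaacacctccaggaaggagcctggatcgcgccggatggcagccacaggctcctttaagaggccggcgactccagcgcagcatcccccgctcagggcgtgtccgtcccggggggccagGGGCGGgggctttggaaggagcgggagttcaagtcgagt
Map3k12 window 2, chr15:102510701-102510950: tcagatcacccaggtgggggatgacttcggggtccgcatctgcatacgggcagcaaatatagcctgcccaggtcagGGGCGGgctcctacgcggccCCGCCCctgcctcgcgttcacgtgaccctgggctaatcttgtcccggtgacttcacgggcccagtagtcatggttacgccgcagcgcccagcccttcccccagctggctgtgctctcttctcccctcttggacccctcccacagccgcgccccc

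The first Map3k12 window holds 1 GGGCGG and 62.8% G and C, and the second holds 2 and 66.8%, where the median of all windows was 52.4%. No value of these arrays bears on which start was used.

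Of the 4 Map3k12 probe sets, 2 were wholly higher in Yaa and 2 overlapped. The probe set 1438908_at read 78.6, 88.3, 92.3 and 79.2 in wild type and 181, 178, 216 and 189 in Yaa, 2.06-fold higher (1.04 ± 0.12, SE). It was among the steadiest of the members, with an SD of 0.097 and 0.11 in log2 signal within the groups. The probe set 1456565_s_at read 18.7, 18.3, 24.2 and 26.1 in wild type and 40.4, 35.6, 91.7 and 62.2 in Yaa, 1.87-fold higher (0.90 ± 0.24, SE), and was highest in Yaa 3. The suffix of the second marks a probe set that can read other genes.

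The probe set 1417115_at read 27.9, 29.2, 30.6 and 26.8 in wild type and 40.4, 17, 28.3 and 16 in Yaa, so the Yaa arrays lay on both sides of wild type (-0.15 ± 0.21, SE). The last, 1458198_at, was below the filter, at 12.7 to 21.1 in wild type and 16 to 23.3 in Yaa. Both lie near the added 16, where a change of signal moves log2(signal + 16) less. The gap 1438908_at less 1417115_at was 1.17 ± 0.051 over the 4 wild-type arrays and 2.36 ± 0.39 over the 4 Yaa arrays (SD), a change of 1.19. With the 2 brightest probe sets, 1438908_at and 1456565_s_at, the change was 0.14 and the groups overlapped.

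Ptp4a2 encodes PRL-2, a small membrane-anchored tyrosine phosphatase of the PRL family, which binds the CNNM magnesium transporters. One of its 4 probe sets was higher in Yaa: 1435129_at read 2969, 3050.5, 3187 and 3555 in wild type and 4441, 5192, 4339 and 4319.8 in Yaa, 1.43-fold higher (0.52 ± 0.099, SE), without overlap. The probe set 1420613_at read 3792, 3385, 4003 and 4213 in wild type and 3215, 3967, 3363 and 3118 in Yaa (-0.17 ± 0.11, SE), and there the groups overlapped through Yaa 2. The differences of 1420612_s_at and 1460707_at were 0.15 ± 0.16 and -0.04 ± 0.14 (SE), and the sign of both turned in some alternatives.

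The Ptp4a2 gap was small but tight. The within-array difference 1435129_at less 1420613_at was -0.27 ± 0.092 (SD, n = 4) in wild type, from -0.35 to -0.15. In Yaa it was 0.42 ± 0.053 (SD, n = 4), from 0.37 to 0.47. The change of 0.69 was 9.23 times the pooled SD, the highest such ratio of the 6 genes, against 9.18 for Taf15 and 1.91 to 4.28 for the other 4. With the signals as deposited the higher probe set overlapped between the groups, while the gap, which depends little on the level of an array, changed by 0.71.

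Pdxdc1 encodes a protein with a pyridoxal-dependent decarboxylase domain. Of its 4 probe sets 1 had a higher mean and 3 lower means in Yaa, but not in every array. The probe set 1419327_at read 22.5, 24.1, 27.7 and 2.23 in wild type and 150.1, 18.4, 333 and 246 in Yaa, a mean difference of 2.18 ± 0.66 (SE), which was 1.39 with log2(signal + 64) and 3.03 with log2(signal + 1). Yaa 2 lay within the wild-type range, and the other 3 Yaa arrays were far above it. The probe set 1452705_at read 234, 238, 248 and 249.8 in wild type and 131, 241, 51.9 and 104 in Yaa (-0.96 ± 0.34, SE), again with Yaa 2 among the wild-type arrays and Yaa 3 farthest away.

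Both other Pdxdc1 probe sets were also low in the Yaa arrays other than Yaa 2. The probe set 1436372_a_at read 72.4 to 87.1 in wild type and 54.3 to 69.6 in Yaa (-0.35 ± 0.13, SE), without overlap, but they overlapped once arrays were median-centred or left as deposited. The probe set 1428200_a_at read 35.6 to 49.1 in wild type and 8.48 to 37.1 in Yaa (-0.64 ± 0.24, SE). The gap 1419327_at less 1452705_at changed by 3.15, the widest of all 4966 genes, yet its groups overlapped, at -3.87 to -2.59 in wild type and -2.90 to 2.36 in Yaa. Without Yaa 2 it was 4.17 and the groups did not overlap, and without Yaa 3 it was 2.45.

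Yaa 2 lay apart from the other Yaa arrays both in neutrophil markers and in Pdxdc1. The order of those other arrays was not the same in both. All 11 neutrophil markers were tested and had higher means in Yaa, with a summed signal of 8462 to 13966 in wild type, 12942 in Yaa 2 and 27614 to 52272 in the other Yaa arrays. None was at 0, and the lowest single value was 4.96. The sum was 52272 in Yaa 1, 35945 in Yaa 3 and 27614 in Yaa 4. Among these arrays Yaa 1 was nearest to wild type in 1419327_at and in 1452705_at of Pdxdc1. The part of cell makeup in the Pdxdc1 values was not tested, and the order of so few arrays is no measure of it. Yaa 2 was not like wild type in the low Kif5b probe sets, in both Taf15 probe sets or in 1438908_at of Map3k12, where it lay with the other Yaa arrays.

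**Figure D3:**
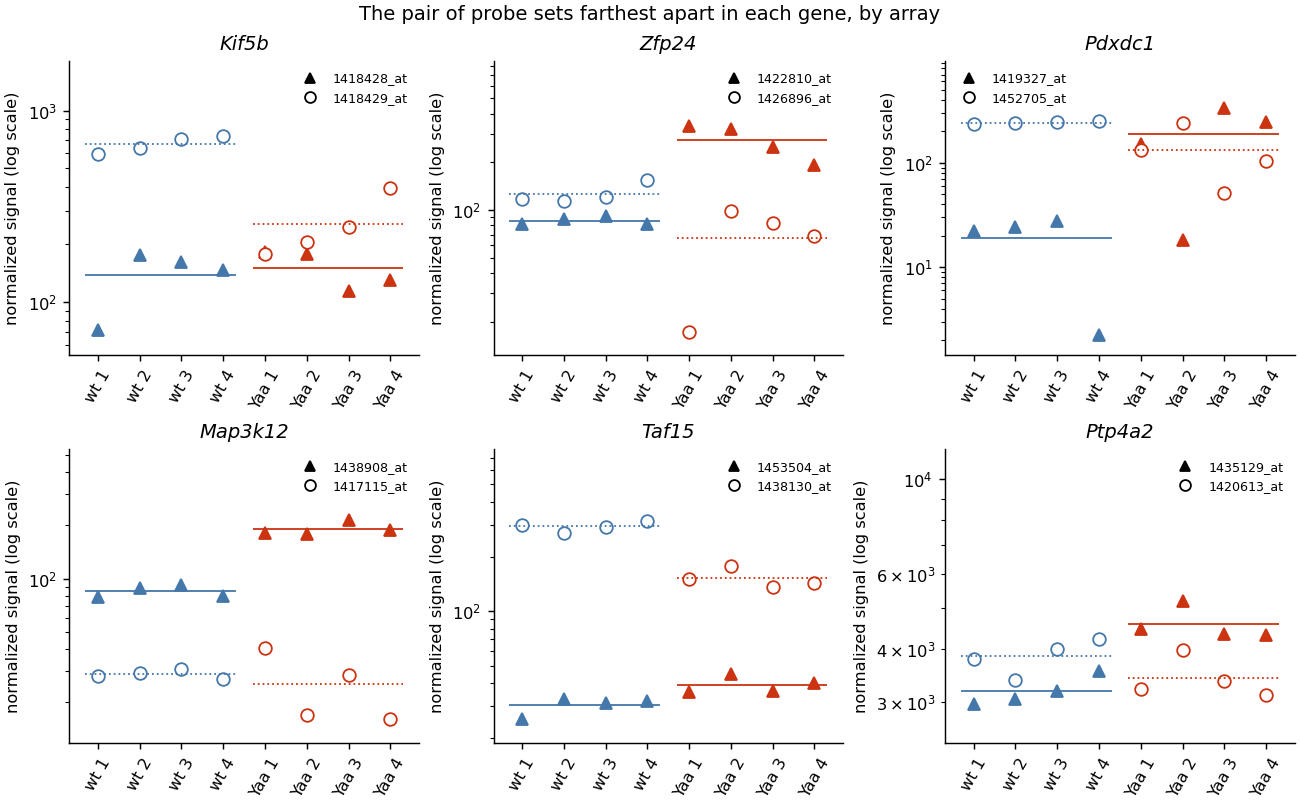
Quantile-normalized signal (log axis, arbitrary units) of the 2 probe sets with the widest gap in each gene, by array. Filled triangles are the probe set with the higher Yaa minus wild-type difference and open circles the other, blue is wild type and red Yaa, and lines are group means of the 4 signals. In Kif5b the circles drop from 591 to 733 in wild type to 179 to 393 in Yaa while the triangles overlap, and in Pdxdc1 the array Yaa 2 sits with wild type.

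Some probe sets of a gene were designed from the same source sequence and others from different ones, as were the 2 of Taf15. Of the 6 Kif5b probe sets, 5 were designed from 1 source sequence, and they included both low ones and 3 that overlapped. In Zfp24 the 2 probe sets of one source differed by 1.48 and -0.08, and the 2 of another by -0.02 and -0.91. In contrast, the 2 of Pdxdc1 with a common source were both lower and the 2 of Map3k12 with a common source were both higher. Over all genes, 4.63% of 3197 pairs of probe sets with the same source stood apart between the groups, close to the 4.48% of all 15081 pairs. Of the 15 member pairs with a common source, 9 did not overlap. Of the 25 with different sources 9 did not, and of the 6 with a source not given 2 did not. The choice of genes contributed to these counts. Pairs of a gene also share probe sets, so they are not independent. The pairs with a common source that did not overlap were all of Kif5b or Zfp24, and most were of Kif5b.

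To place the 6 genes, the widest gap was taken for all 4966 genes with 2 or more tested probe sets. The median change of that gap was 0.20, and its 99th percentile was 0.90. Its groups did not overlap in 353 genes, or 7.11%, a share that grew with the number of probe sets, from 4.08% with 2 to 17.0% with 5 or more. It also grew when an array was left out, to 13.9% without Yaa 2 and 13.6% without Yaa 3, since fewer arrays overlap less often. The ranks from the widest were 1 for Pdxdc1, 4 for Zfp24, 8 for Kif5b, 17 for Map3k12, 20 for Taf15 and 150 for Ptp4a2, and 5 of the 6, all but Pdxdc1, did not overlap. In 4 genes, or 0.0805%, which became 20 without Yaa 2 or without Yaa 3, 1 probe set was wholly higher and another wholly lower: Zfp24, Taf15, Ankrd17 and Atf4. The gaps of Ankrd17 and Atf4 changed by 0.40 and 0.36. With the signals as deposited only Zfp24 remained among them.

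**Figure D4:**
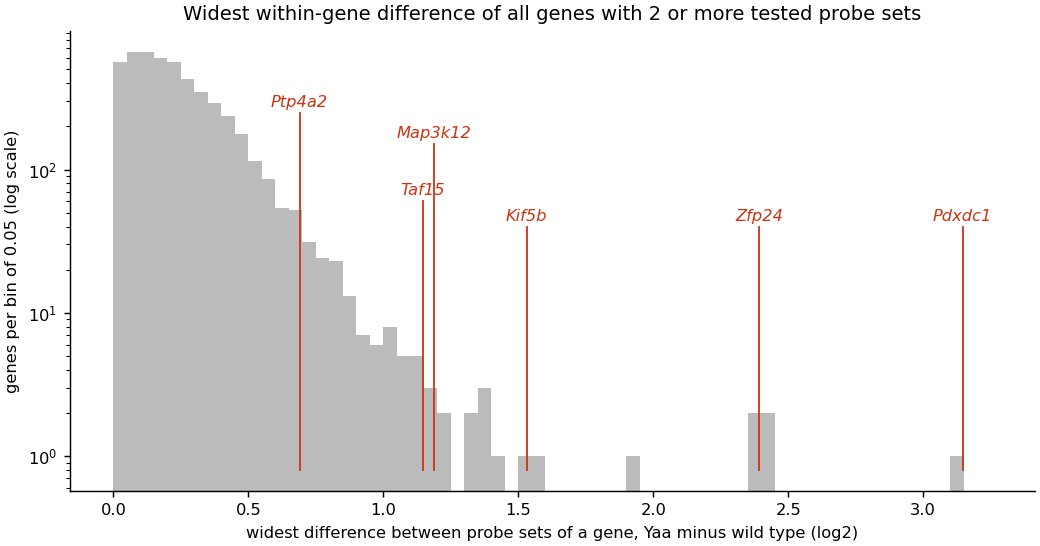
Histogram of the widest within-gene difference, Yaa minus wild type on the log2 scale, of the 4966 genes with 2 or more tested probe sets, with the number of genes on a log axis. Red lines mark the 6 genes: Ptp4a2 at 0.69, Taf15 at 1.15, Map3k12 at 1.19, Kif5b at 1.53, Zfp24 at 2.39 and Pdxdc1 at 3.15, where the median gene lies at 0.20.

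The array carries control probe sets at the 3′ end, the middle and the 5′ end of Actb and Gapdh, which the choice of genes did not use. Their ratios were taken within each array from log2(signal + 16) of the signals as deposited. The log2 ratio of 3′ to 5′ signal was 0.40 ± 0.0092 over the 4 wild-type arrays and 0.41 ± 0.056 over the 4 Yaa arrays (SD) for Actb. For Gapdh it was -0.31 ± 0.033 over the 4 wild-type arrays and -0.38 ± 0.069 over the 4 Yaa arrays (SD). The differences of these and of the 2 ratios of 3′ to middle ran from -0.11 to 0.006, and all 4 groups overlapped (two-sided exact permutation test, p = 0.143 to 0.886, and 0.514 to 0.886 adjusted over 4 ratios). The smallest p that 4 against 4 allows is 0.0286. With quantile-normalized signals the differences were -0.13 to -0.03. The groups did not overlap in the Gapdh ratio of 3′ to 5′ without Yaa 1, at -0.10, or in the Actb ratio of 3′ to middle without Yaa 3, at -0.06.

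**Figure D5:**
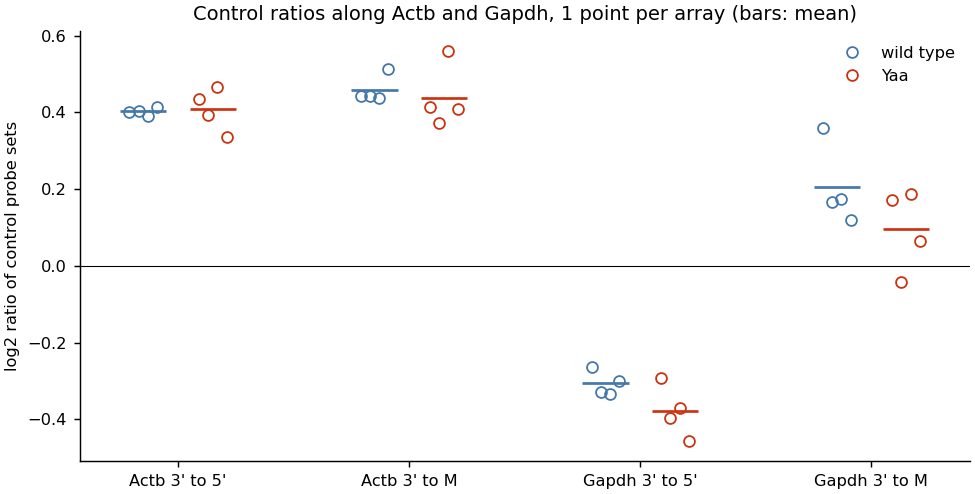
Log2 ratio of control probe sets along the Actb and Gapdh transcripts, 1 point per array, with bars at the group means. Wild type (blue) and Yaa (red) overlap in all 4 ratios, and the means differ by 0.11 or less.

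Close relatives were examined where the array measured them. All 3 probe sets of Kif5a and all 4 of Kif5c, the kinesin-1 heavy chains of neurons, were below the filter in spleen. Ewsr1, the relative of Taf15, had 2 tested probe sets, at -0.11 ± 0.12 and 0.10 ± 0.16 (SE; limma adjusted p = 0.997 each), the second of which turned sign under both other scalings, with array weights, without Yaa 2 and without Yaa 2 and Yaa 3. Ptp4a3, encoding PRL-3, had 2, at -0.25 ± 0.12 and -0.04 ± 0.21 (SE; limma adjusted p = 0.997 and 0.999). In the first of them all Yaa arrays were lower, at 1084 to 1497 against 1499 to 1689 in wild type. Over all tested probe sets 1.67% had all Yaa arrays lower. The widest gaps of Ewsr1 and Ptp4a3 changed by 0.22 and 0.21, near the median of all genes, and overlapped between the groups. Map3k13 and Ptp4a1 were not analysed here.

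Among 8 lists of genes that work with the members or act on transcript form, limma called 0 of 120 tested genes, as it called 0 of 10340 genes by their brightest probe set (0%). At an unadjusted p under 0.05 there were 4 of 120, where all genes gave 4.85%, and 5 of 120 did not overlap, where all genes gave 4.47%. Median differences of the lists were -0.04 for kinesin-1 subunits and adaptors (12 tested), -0.01 for the JNK cascade (14), -0.02 for TFIID genes and relatives of Taf15 (14), -0.10 for PRL phosphatases and CNNM partners (4), -0.03 for SCAN zinc fingers (16) and -0.15 for pyridoxal-dependent decarboxylases and pyridoxal phosphate supply (6). Splicing factors (34) had a median of -0.0007 and 3′ end processing factors (21) of -0.05, beside -0.02 over all genes.

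Hdc, which makes histamine, had the smallest p, at 1.77 ± 0.35 (SE; limma adjusted p = 0.414), and its groups did not overlap. It passed with array weights, at 1.44 (limma adjusted p = 0.023), without Yaa 4, at 2.13 (limma adjusted p = 0.038), and without Yaa 2 and Yaa 3 together, at 1.05 (limma adjusted p = 0.018). Mapk8ip3, a scaffold that links JNK to kinesin-1 and so stood on both of those lists, had -0.29 ± 0.12 (SE; limma adjusted p = 0.997), and Trak2, a mitochondrial adaptor of kinesin, had -0.46 ± 0.34, which was -0.06 without Yaa 2. Taf7, a TFIID subunit, had -1.0 ± 0.38, Zfp445 -0.33 ± 0.13 and Papolg, a poly(A) polymerase, -0.42 ± 0.21 (SE, limma adjusted p = 0.997 each). The groups did not overlap for Mapk8ip3 or for Taf7, with all Yaa arrays lower. Of splicing factors the smallest p was that of U2af1, which reads the 3′ splice site, at 0.24 ± 0.14 (SE; limma adjusted p = 0.997).

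The remaining genes that the naming rule gave for these lists had the same limma adjusted p of 0.997. On the side of motors and JNK signalling they were Kif1b at 0.29, Spag9 at 0.38 and Map3k1 at -0.40. Among TFIID and zinc finger genes they were Taf3 at -0.41, Taf6 at -0.20, Zscan29 at 0.51 and Zkscan1 at 0.19. The CNNM genes Cnnm3 and Cnnm4 had 0.16 and -0.30, and the decarboxylase genes Gad1 and Csad had -0.72 and -0.51. The RNA processing genes Hnrnpl, Rbfox2, Cpsf7 and Pcf11 had 0.17, 0.28, -0.14 and -0.10. Cnnm3, Zkscan1 and Hnrnpl turned sign with the signals as deposited, and Cnnm4 without Yaa 4. Without Yaa 2, Spag9 was at 0.15 and Taf6 at -0.07. Without Yaa 3, Map3k1 was at -0.08, Cnnm3 at 0.06, Cpsf7 at -0.05 and Pcf11 at -0.02.

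The genes that flank the members on the chromosome were taken to see whether their surroundings differed between the strains. By GRCm38.p6, Kif5b and Zfp24 lie on chromosome 18, Taf15 on 11, Map3k12 on 15, Ptp4a2 on 4 and Pdxdc1 on 16. Of the 10 protein-coding genes on each side of each member, 72 of 120 were tested and limma called 0, with 8 at an unadjusted p under 0.05, where all genes gave 4.85%. Of the 72, 8 (11.1%) did not overlap between the groups, where all genes gave 4.47%. With array weights limma called Slfn4 and Wfdc21, both beside Taf15, and without Yaa 2 it called Slfn4. Beside Kif5b 12 of 13 tested neighbours had lower means, with a median of -0.17. They included Arhgap12, the adjacent gene, at -0.49 ± 0.15 and Mpp7 at -0.94 ± 0.22 (SE; limma adjusted p = 0.855 and 0.557), both without overlap.

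Beside Taf15 9 of 11 tested neighbours had higher means, with a median of 0.44. That stretch holds genes of myeloid cells, among them Slfn4 at 2.24 ± 0.26, Ccl9 at 0.81 ± 0.32 and Ccl3 at 0.51 ± 0.19 (SE; limma adjusted p = 0.055, 0.997 and 0.997), none of which overlapped. The neutrophil and monocyte markers, of which 11 of 11 and 7 of 7 tested had higher means in Yaa, moved the same way, and their part was not tested. Summed monocyte markers were 6816 to 7625 in wild type and 7846 to 19535 in Yaa, and the lowest single value was 96.5. Beside Pdxdc1, Ercc4 at -0.37 and Rrn3 at 0.30 did not overlap, and beside Zfp24 1 of 11 did not. Beside Map3k12 and Ptp4a2 0 of 13 and 0 of 12 stood apart.

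The probe set of another gene whose profile over the 8 arrays was most like that of a member was found for the 2 probe sets of the widest gap in each gene, 12 of the 26, by the root-mean-square difference of values scaled to mean 0 and SD 1, among 19088 to 19092 candidates. This likeness includes the difference between the groups for which the members were chosen. A probe set that separates the groups therefore tends to match others that do, and what the matches share beyond that was not tested. For 1438908_at of Map3k12 the most similar was the Casp9 probe set 1457816_at, at 0.12, whose own difference was 2.54. For 1452705_at of Pdxdc1 it was a probe set of Parn, at 0.11, which lies 6 protein-coding genes away from Pdxdc1 in the annotation. For the higher Zfp24 probe set it was Cd14, at 0.25, and for the lower Aldoc, at 0.19. For the low probe set of Kif5b in the widest gap it was 2610008E11Rik, at 0.21, and for the other Grwd1, at 0.27. The remaining pairs were Pttg1 for 1419327_at of Pdxdc1, Lrig1 for 1417115_at of Map3k12, Dgkh and Exoc6 for Taf15, and Spata13 and Arhgap25 for Ptp4a2, at 0.22 to 0.30.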

How the data were processed

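The table deposited by the authors gives 1 linear MAS5 intensity for each probe set and array, MAS5 being named in the submitters' processing notes. Which version and scaling target they used is not given in the sources used here. Since trimmed means differed between arrays, all arrays were quantile normalized and taken as log2(signal + 16). Probe sets whose mean log2 value did not exceed the median were dropped with the 64 controls, leaving 22518 to test. limma (version 3.58.1, R version 4.3.3) compared the groups by lmFit and eBayes(trend = TRUE), adjusted by Benjamini-Hochberg over all tested probe sets. Genes were named from the platform annotation where it gave 1 symbol (34945 probe sets, 932 with several and 9160 with none), updated by Entrez gene ID to GRCm38.p6; the brightest tested probe set stood for a gene in lists. Promoter letters are RefSeq's, build GRCm38.p6.

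The 6 genes, the gene lists and the rule for naming genes were chosen with earlier results of these data known. The rule named all member probe sets, the 3 genes of each list with the smallest p, close relatives, the most similar probe set of another gene and the 5 widest genes with probe sets wholly higher and wholly lower, of which there were 4. Neighbours that stood apart, Slfn4 and Wfdc21 were named after their values were seen. The number of arrays limits the precision, and the series' design text gives 1 spleen per sample except Yaa 3. The procedure was tested on simulated data. The alternatives were other pseudocounts, scalings, filters and variance models, a block for the replicate number, and samples left out. Replicate numbers are shared by both groups, but the deviations of same-numbered samples correlated from -0.37 to 0.02 and nothing in the labels ties them. Figures were drawn with matplotlib 3.10.9.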

Additional observations from a re-analysis of the deposited data

Results flagged for a closer look

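In 11 of 120 sets of 4 arrays, 1 array lay farther from the other 3 than the 95% limit for 4 values allows; chance does so in about 1 of 20. Yaa 2 stood out most often. It was high in 1436372_a_at of Pdxdc1, at a log2 signal of 6.42 against 6.14 to 6.18, in 1420612_s_at of Ptp4a2, at 9.91 against 9.28 to 9.33, and in 1435129_at of Ptp4a2, at 12.35 against 12.08 to 12.12. It was low in Trak2, at 9.99 against 11.50 to 11.71, and in Taf6, at 7.25 against 7.77 to 7.84. Wild type 4 was low in 1419327_at of Pdxdc1, at 4.19 against 5.27 to 5.45, which is close to the floor of 4 set by the added 16. For the same reason its Pdxdc1 gap was -3.87 against -2.70 to -2.59. Its Actb ratio of 3′ to middle was 0.51 against 0.44 in the other 3. Yaa 1 had a Zfp24 gap of 3.40 against 1.29 to 1.55. Zscan29 was 6.30 in Yaa 3 against 5.41 to 5.55, and U2af1 was 10.51 in Yaa 4 against 9.99 to 10.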

How the results depend on the processing

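For the same pairs of probe sets, the gap of all 6 genes kept its direction under every alternative run. At least 5 of the 6 did not overlap in each, and without Yaa 2, or without Yaa 2 and Yaa 3, 6 of 6 did not. The pairs were picked as the widest in this same comparison. Where a gap did not overlap, the block, filters, variance models and fewer arrays could hardly change that. The kept direction is therefore no measure of stability. The size of the gap moved beyond its spread with the added constant, to 1.32 for Taf15 with log2(signal + 1), and to 0.86 for Taf15 and 0.84 for Map3k12 with log2(signal + 64), since that constant weighs on dim probe sets. With the 2 brightest probe sets it was 1.23 for Kif5b, 1.5 for Zfp24, 0.62 for Pdxdc1 and 0.14 for Map3k12, and 4 of 6 did not overlap. For Taf15 and Ptp4a2 the 2 brightest were the widest pair itself, so for these genes it was no alternative. The share over all genes was not taken for such pairs.

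The 1 call over all probe sets became 0 with log2(signal + 1), with the strictest filter and with the replicate block, 143 with array weights and 105 without Yaa 2 and Yaa 3; with single arrays left out it was 0 to 30. The block changed no other count. With array weights limma called 1 gene of the related lists, Hdc, and 2 neighbours; without Yaa 2 and Yaa 3 it called 1 and 3. With single arrays left out it called 0 to 1 in both. The share of genes whose widest gap did not overlap was 25.1% without Yaa 2 and Yaa 3, and 10.3% to 13.9% with single arrays left out. The share with probe sets wholly higher and wholly lower was 0.0201% with the signals as deposited, 0.0419% with the strictest filter, 1.93% without Yaa 2 and Yaa 3, and 0.141% to 0.403% with single arrays left out. The share of neighbours that did not overlap was 6.25% with the strictest filter, 30.6% without Yaa 2 and Yaa 3, and 11.4% to 20.5% with single arrays left out. The counts over all tested probe sets rose too, from 548 wholly higher and 376 wholly lower in the main run. They were 1862 and 2113 without Yaa 2 and Yaa 3, and 1099 and 1151 without Yaa 2, where the share of neighbours was 20.5%. Fewer arrays overlap less often by construction; the cause of the other shifts was not tested. For the 4 control ratios the adjusted p ran from 0.114 to 1 over the alternatives; 1 ratio alone could not go below 0.114.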
